A study of Mus musculus with 2 samples.

Results

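The genes described here are the lysosomal scaffold of mTOR complex 1: the Ragulator subunits Lamtor1 to Lamtor5, the Rag GTPases Rraga, Rragc and Rragd, the kinase Mtor and its partner Rptor. They are 10 of 20887 genes named on an Agilent mouse expression array, and were found as every gene probe whose RefSeq accession belongs to 1 of these symbols, 13 probes in all. They were chosen by their role around Lamtor2, which was itself selected on its ratio of high over normal glucose signal on these same arrays, so the ratios of the 10 genes are given as a description. The cells were primary pericytes, which sit on the outside of capillaries, cultured from the corpus cavernosum of C57BL/6 mice in DMEM with serum, antibiotics and human pigment epithelium-derived factor. One group was kept for 72 h in high glucose, labelled 30 mmol, and the other for 72 h in normal glucose, labelled 5 mmol, with no volume stated. RNA of 3 samples was pooled per condition and hybridised to 1 array. There is thus no replicate check and no p-value, and every difference is between these 2 pools. No osmotic control was analysed here, so glucose and osmolality cannot be told apart.

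Ragulator is a complex on the outer face of late endosomes and lysosomes. Lamtor1 is held in the membrane by lipid anchors and wraps around the other subunits, which form the pairs Lamtor2 with Lamtor3 and Lamtor4 with Lamtor5. The complex holds the Rag GTPases, which work as pairs of RagA or RagB with RagC or RagD. When amino acids and glucose are plentiful the Rag pair binds raptor, the product of Rptor, and brings the kinase mTOR to the lysosome, where Rheb switches it on. Lamtor2 and Lamtor3 were first described as an adaptor that brings the MAP kinase kinase MEK1 to late endosomes. Transcription factors of the MiT/TFE family (Tfeb, Tfe3, Mitf) drive many lysosomal genes through the sequence CACGTG and are themselves held in check by mTORC1.

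The promoter of Lamtor2, the one of the 10 genes that differs most between the pools, and the windows of the 3 members with a CACGTG are shown here, from RefSeq on build GRCm38.p6. RefSeq promoters, from 250 bases before to 50 after the start, were matched for 9 of the 10 members. In the Lamtor2 promoter (chr3:88552902-88553201, minus strand) the capitals mark ACTACNNNTCCCAG and CCGGAAG, motifs searched on both strands that were picked after the sequence had been read. In the other 3 lines the capitals mark CACGTG, which reads the same on both strands. These windows come from the promoters at chr7:101905587-101905886, chr5:138255232-138255531 and chr4:123917183-123917482, all on the plus strand.
Lamtor2: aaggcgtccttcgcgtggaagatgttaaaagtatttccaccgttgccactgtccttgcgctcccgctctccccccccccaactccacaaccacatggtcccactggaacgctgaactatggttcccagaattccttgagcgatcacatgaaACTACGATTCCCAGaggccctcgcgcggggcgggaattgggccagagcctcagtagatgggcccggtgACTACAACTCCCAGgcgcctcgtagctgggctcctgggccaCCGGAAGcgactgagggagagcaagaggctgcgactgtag
Lamtor1: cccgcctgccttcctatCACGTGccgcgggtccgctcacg
Lamtor4: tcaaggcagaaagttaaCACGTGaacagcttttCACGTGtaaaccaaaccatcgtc
Rragc: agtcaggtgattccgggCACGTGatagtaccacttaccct

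CACGTG stood in 3 of the 9 member promoters, against 7.15% of 32851 promoters in the table and 9.58% of the 14304 promoters of genes measured here. In Lamtor1 it began 68 bases before the start and in Rragc 112 bases before it. Lamtor4 held it at 120 and at 104 bases before the start. Its letters are not in the Lamtor2 window. The variant TCACATG, also searched on both strands, occurred 1 time in Lamtor2 and 2 times in Lamtor1, and in no other member promoter. It was found in 3.99% of all promoters and 2.51% of those of measured genes. ACTACNNNTCCCAG occurred in Lamtor2 alone among the 9, beginning 99 and 31 bases before the start. One or more matches were found in 1.21% of all promoters and 2.34% of those of measured genes. The shares with 2 or more matches were 0.094% and 0.203%. CCGGAAG was found in 4 of the 9 (Lamtor1, Lamtor2, Rraga and Mtor), against 8.86% of all promoters and 15.5% of those of measured genes. These are matches of letters and say nothing about binding.

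All 13 probes were well above background on both arrays and none was saturated or carried an outlier mark. Of the 10 genes, 8 had 1 probe each. The arrays lay on 1 slide and were scanned together, with 57.6% of gene spots well above background in high glucose and 56.3% in normal glucose. Of 20887 named genes, 14176 were measured on both arrays. Of 9 pericyte markers 8 were measured, among them Pdgfrb, with signals of 18161 in high and 17471 in normal glucose. The one that was not well above background was Kcnj8. Of the smooth muscle markers 5 of 5 were measured, of the fibroblast markers 4 of 5, endothelial 3 of 5, immune 3 of 5, Schwann cell 2 of 3 and epithelial 2 of 4, so the measured markers do not single out pericytes. Epcam, Cdh1, Cdh5 and Tek were not well above background. Signals were also summed, before scaling, over every marker matched to a probe, with those not well above background included. The sums were 54115 in high and 56725 in normal glucose for pericytes, 619925 and 641686 for smooth muscle, and 144425 and 149456 for fibroblasts. They were 7244 and 7565 for endothelium, 1296 and 1317 for immune cells, 1401 and 1541 for Schwann cells, and 600 and 652 for epithelium. Every sum is lower in high glucose, but scaling adds 0.08 to each log2 ratio. A sum can also rest on 1 bright probe, as Kdr gives 7075 of the 7244 for endothelium. No difference between the pools is read from the sums. After scaling, the median log2 ratio of the measured markers was -0.07 for pericytes (4 higher, 4 lower), 0.07 for smooth muscle (5 higher, 0 lower), -0.05 for fibroblasts (1 higher, 3 lower) and 0.02 for endothelium (2 higher, 1 lower). It was 0.07 for immune cells (3 higher, 0 lower), -0.05 for Schwann cells (0 higher, 2 lower) and 0.08 for epithelium (1 higher, 1 lower). Their part in the results was not tested, and fewer cells of a type cannot be told apart from less RNA per cell.

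Among Ragulator subunits, Lamtor2 had about 2 times the signal in high glucose, while the other 4 were nearly level. Lamtor2, the roadblock-fold partner of Lamtor3, gave a processed signal of 21771 in high glucose, against 10826 in normal glucose. Its 1 probe carries the accession NM_031248. After each array was scaled to its 75th percentile over gene probes, Lamtor2 was 2.13-fold higher, a log2 ratio of 1.09. Before scaling, the ratio of the 2 signals was 2.01.

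Error within an array can be read in 2 ways. Probes printed at least 10 times with a mean signal of 4096 or more, of which there were 94, had a median SD of the log2 ratio of 0.032 between spots. The scanner software's own error estimate for the Lamtor2 spot was 2177 in high and 1083 in normal glucose, which gives 0.20 on the log2 ratio. The Lamtor2 ratio is larger than either, but neither covers differences between pools. Lamtor2 was also selected on this ratio, so the comparison is a description and no test. With the median pixel of the spot minus its local background, the log2 ratio was 1.07. The 15 well measured spots within 2 rows and columns of it had a median log2 ratio of -0.02, and the largest of them in size was 0.45.

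Lamtor1, the membrane anchor, had signals of 38352 in high and 42124 in normal glucose, a log2 ratio of -0.06. The brightest of 3 Lamtor3 probes gave 45938 in high and 48855 in normal glucose, a log2 ratio of -0.01. The second Lamtor3 probe gave 22260 in high and 24413 in normal glucose (log2 ratio -0.05), and the third 1043 and 1178 (log2 ratio -0.10). The 3 probes of this gene thus lay within 0.10 of level, all slightly on the low side. Lamtor4 had 24860 in high and 26257 in normal glucose, a log2 ratio of 0.001. Lamtor5, its partner, had 19507 in high and 20037 in normal glucose, a log2 ratio of 0.04. The log2 ratio of Lamtor2 exceeded the median of the other 4 subunits by 1.09, and those 4 ran from -0.06 to 0.04. Raw signals are given before scaling, and scaling adds 0.08 to each log2 ratio. Signals of different probes are not compared, since probes differ in how well they bind.

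**Figure D1:**
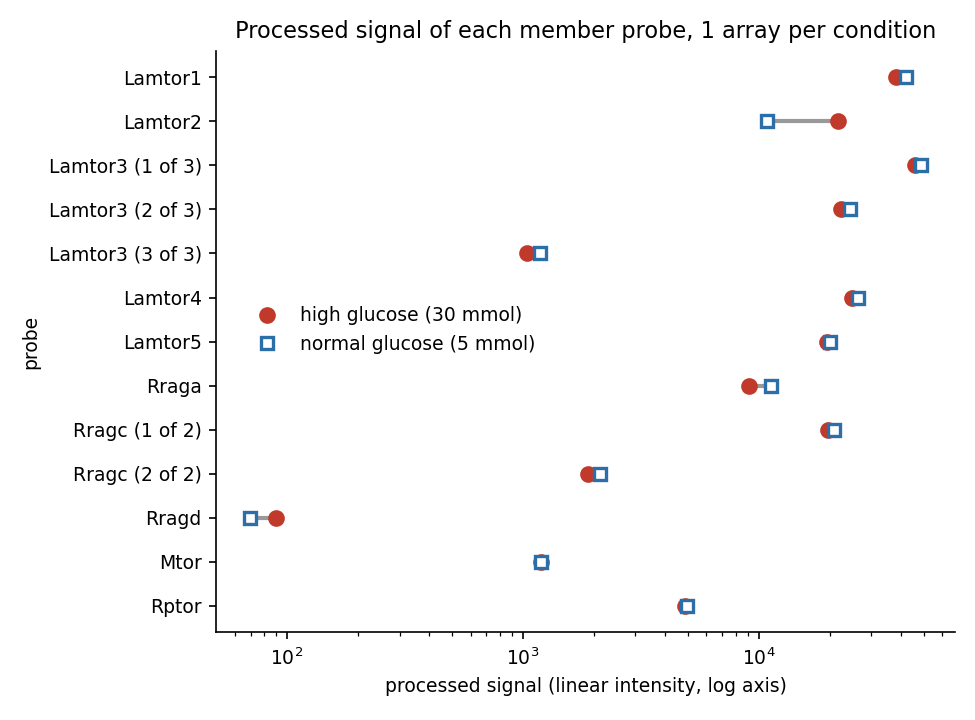
Processed signal of the 13 probes of the 10 genes, before scaling, on a log axis; filled circles are the high glucose array, open squares the normal glucose array, and a grey line joins the 2 values of a probe. Lamtor2 is the widest pair, at 21771 in high and 10826 in normal glucose, and signals of different probes are not comparable.

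The Rag GTPases were mixed and the differences small. Rraga, the RagA subunit whose GTP-bound form recruits raptor, had signals of 9062 in high and 11315 in normal glucose. It was 1.18-fold lower in high glucose, a log2 ratio of -0.24, or -0.28 by median pixels. This is beyond the repeat-spot SD of 0.032 and slightly beyond the software's error of 0.20. The 16 measured spots around it had a median log2 ratio of -0.05. Among 4715 named genes with a mean signal of at least 4096, Rraga was number 53 from the low end, within the lowest 1.12%, and it has no second probe.

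Rragc, the RagC subunit, gave 19619 in high and 20955 in normal glucose on its brighter probe, a log2 ratio of -0.02. Its second probe gave 1896 in high and 2129 in normal glucose, a log2 ratio of -0.09. Both probes were close to level. Rragd encodes RagD, the alternative to RagC, and is a known target of MiT/TFE factors. It was dim, with 89.9 in high and 69.5 in normal glucose. Its log2 ratio of 0.45 was within 2 times the SD of 0.29 between repeat spots of signal under 128, and by median pixels it was 0.16. A difference in Rragd was therefore not detectable with this signal. Rragb, the alternative to RagA and not one of the 10, was also dim, with 60.6 in high and 68.1 in normal glucose (log2 ratio -0.09).

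The kinase and its scaffold were close to level. Mtor had signals of 1188 in high and 1199 in normal glucose, a log2 ratio of 0.07. Rptor, which presents substrates to the kinase, had 4872 in high and 4961 in normal glucose, a log2 ratio of 0.05. Repeat spots had an SD of 0.044 at the signal of Mtor, and 0.032 at that of Rptor.

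**Figure D2:**
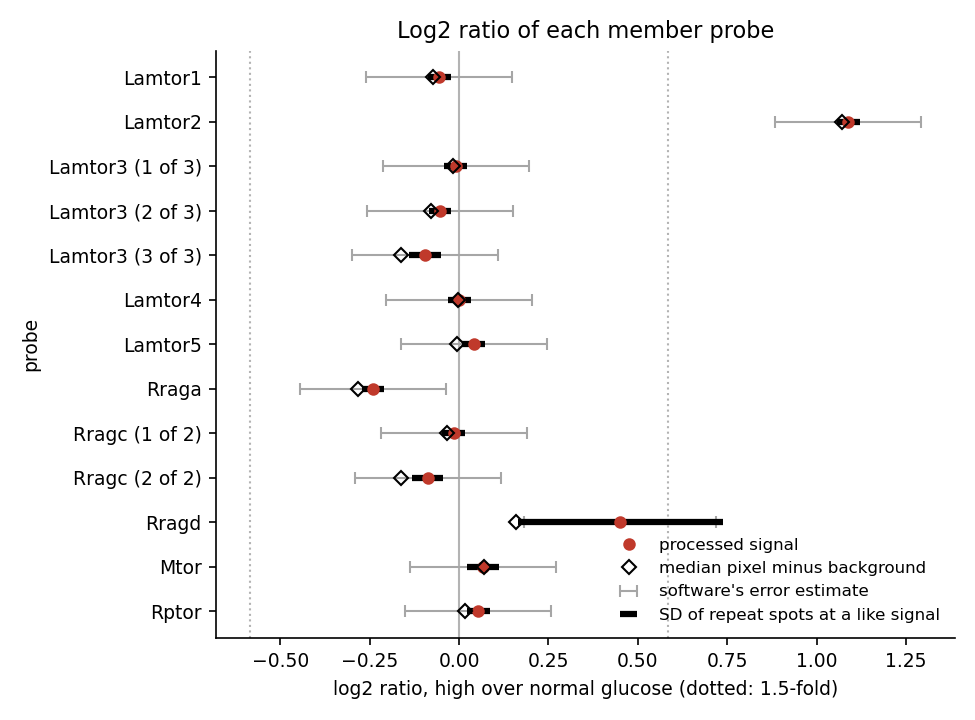
Log2 ratio of high over normal glucose for each of the 13 probes; filled circles are from the processed signal, diamonds from median pixels minus local background, thick bars the SD of repeat spots of like signal and thin bars the software's error estimate. Lamtor2 at 1.09 lies past the dotted 1.5-fold lines, and the other probes lie between -0.24 for Rraga and 0.45 for the dim Rragd.

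By count, 1 of the 10 genes, Lamtor2, was at least 1.5-fold higher and none was as much lower. Of all 14176 measured genes 1.62% were at least 1.5-fold higher and 2.81% differed by as much in either direction. At 1.2-fold, 2 of the 10 were higher, Lamtor2 and Rragd, and 0 lower, against 6.8% higher and 5.51% lower over all measured genes. At 2-fold, 1 was higher, against 0.501%. Lamtor2 led to the choice of the set, so nothing is read from these shares. The median log2 ratio of the 10 was 0.02, with 6 higher and 4 lower, beside -0.01 over all measured genes. When each array was centred on its median instead, 3 were higher and 7 lower. The 9 genes without Lamtor2 had a median of 0.001, with 5 higher and 4 lower.

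The place of Lamtor2 among genes of like brightness was taken from the 4715 genes with a mean signal of at least 4096, where the spread of log2 ratios had an SD of 0.14. In that set 4 genes (0.0848%) were at least 2-fold higher and none was at least 2-fold lower. They were Klra16, Hmox1, Lamtor2 and Prmt1, in falling order. Lamtor2 was selected on this ratio, so nothing is read from its place. Klra16, a natural killer cell receptor gene, had a log2 ratio of 5.40, and its other 2 probes gave 0.45 and 0.09. It passes the limit of 4096 only through the high glucose array, with 33203 in high and 833 in normal glucose. Hmox1, the haem-degrading oxygenase, gave 3.14 and 2.17 with its 2 probes. Prmt1, an arginine methyltransferase, gave 1.00 and 1.09. Hmox1 and Prmt1 therefore have a second probe with a ratio of similar direction and at least 2-fold size, while Lamtor2 rests on 1 probe. Where 2 probes of a gene both had a signal of at least 4096, in 627 genes, their log2 ratios differed by a median of 0.042, and in 1 gene by at least 1. Those genes were not selected on their ratio, as Lamtor2 was. The median therefore does not say what a second Lamtor2 probe would read.

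**Figure D3:**
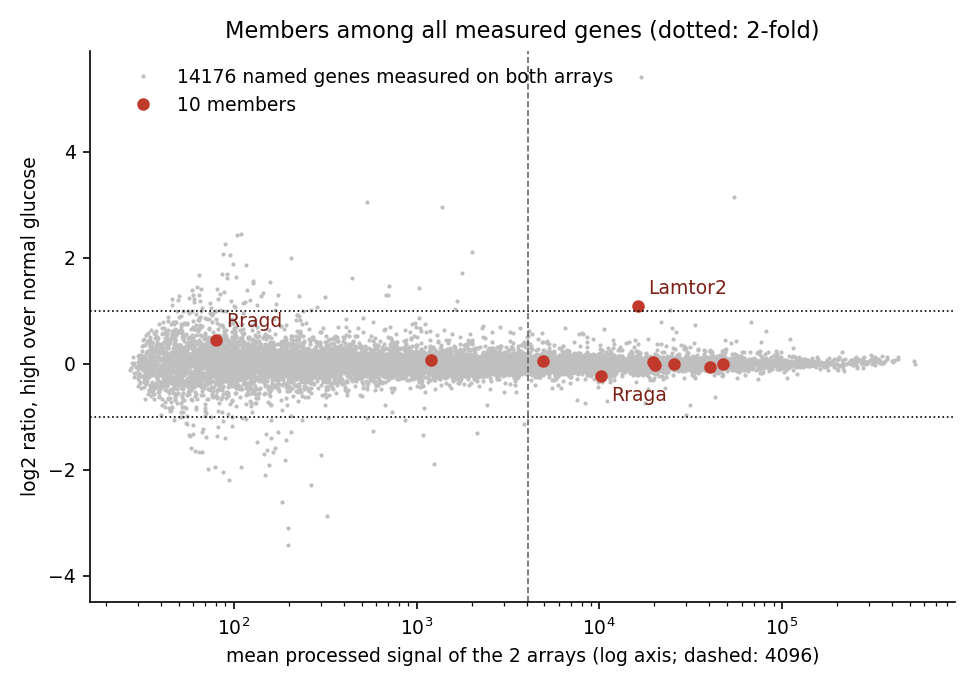
Log2 ratio of high over normal glucose against mean processed signal (log axis) for 14176 named genes (grey) and the 10 genes described (red); dotted lines mark 2-fold and the dashed line a signal of 4096. Lamtor2 lies above the grey band at 1.09, Rraga at its lower edge at -0.24, and the dim Rragd inside it at 0.45.

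Among 2116 genes with a signal within a factor of 2 of that of Lamtor2, only Klra16 had a higher ratio, and the next below were Prmt1 and Aqp5, a water channel, with a log2 ratio of 0.78. The signal here is the mean of both arrays, which the ratio itself moves: Klra16 enters through the high glucose array, with 33203 in high and 833 in normal glucose. With 2 arrays this likeness is a single ratio, and Lamtor2 was selected on it, so nothing is read from its rank. The genes next to Lamtor2 in RefSeq order on chromosome 3 were nearly level. Ubqln4 had a log2 ratio of 0.08, Ssr2 0.05 and Mex3a -0.03, while Rab25 could not be measured above background. RefSeq lists 5 transcripts for Lamtor2, 2 coding and 3 non-coding, and the 1 probe cannot tell which of them it reads beyond the accession it carries. Of the other members, Lamtor3 and Lamtor5 also lie on chromosome 3, and 4 lie on chromosome 4 (Mtor, Rraga, Rragc and Rragd).

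No gene of the wider pathway differed by as much as 1.5-fold. In 11 other lists of genes that sense nutrients, carry the mTORC1 signal or build the lysosome, 97 of 97 genes were measured and 0 were at least 1.5-fold different, against 2.81% of all measured genes. At 1.2-fold there were 4 higher and 1 lower, or 5.15%, against 12.3% in either direction. Both shares are over all measured genes, dim ones included, whose log2 ratios had an SD of 0.24. For genes with a mean signal of at least 4096 the SD was 0.14. No share at like signal was taken, so nothing is read from the difference. Over the 97 genes the median log2 ratio was -0.02, with 33 higher and 64 lower, where 53.2% of all measured genes were lower. With each array centred on its median the split was 9 higher and 88 lower, where 72.7% of all measured genes were lower. The size of the split of ratios this near 0 thus depends on the scaling. Over all settings the share of the 97 that was lower ran from 60.8% to 90.7%.

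Direct partners of mTORC1 gave 3 higher and 6 lower of 9, with a median of -0.02. Akt1s1, which encodes the inhibitor PRAS40, was the highest at 0.52, with signals of 1120 in high and 827 in normal glucose. Rheb, the GTPase that switches mTORC1 on, had 7386 in high and 7829 in normal glucose, a log2 ratio of -0.004. The subunits of mTORC2 alone (4 genes) had a median of -0.03, with Prr5 lowest at -0.20. In the TSC complex, which switches Rheb off, Tsc2 was lowest at -0.36, from dim signals of 81.3 in high and 111 in normal glucose, and Tsc1 was at -0.01.

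Regulators of the Rag GTPases had list medians near 0, with single genes away from it. The GATOR1, GATOR2 and KICSTOR genes, which control RagA and RagB, ran from -0.11 for Wdr59 to 0.10 for Depdc5 over 11 genes, with a median of 0.02. Among 7 amino acid sensors, Castor2, a relative of the arginine sensor Castor1, was highest at 0.55, with 9423 in high and 6780 in normal glucose. Slc38a9, the lysosomal arginine transporter that binds Ragulator and the Rags, was lowest at -0.23. The folliculin complex, which acts on RagC and RagD, had a median of -0.06 over 3 genes, with Fnip2 lowest at -0.20.

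Among 10 substrates and MiT/TFE factors the median was -0.05, with 2 higher and 8 lower. Rps6kb2, a ribosomal S6 kinase, was the highest at 0.29, while its second measured probe gave -0.21. Eif4ebp1, the translation repressor 4E-BP1, was the lowest at -0.20, with 38258 in high and 46581 in normal glucose. The factors Tfe3 and Mitf had -0.01 and -0.05, and Tfeb, dim at 144 in high and 171 in normal glucose, had -0.17. The MAP kinase partners of Lamtor2 and Lamtor3 had a median of 0.02 over 6 genes, with 4 higher and 2 lower, and Map2k1 (MEK1) was the lowest at -0.03.

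The vacuolar ATPase, the proton pump that acidifies the lysosome and binds Ragulator, had a median log2 ratio of -0.08, next to -0.07 for the TSC complex the lowest of the 11 lists, and 15 of 16 subunits were lower in high glucose, none by 1.2-fold. Atp6v1h was the lowest at -0.25, with signals of 6204 in high and 7825 in normal glucose, and Atp6v0e the highest at 0.002. A one-sided split was not particular to the pump: all 4 mTORC2, 3 TSC complex and 3 folliculin complex genes were lower too. More were higher than lower among GATOR and KICSTOR genes (8 and 3), amino acid sensors (4 and 3) and MAP kinase partners (4 and 2). Of all measured genes 53.2% were lower, and 54.0% of those with a mean signal of at least 4096. Between 15 and 16 vacuolar ATPase subunits were lower under each of the 10 other ways of processing, with medians from -0.14 to -0.07. Over those 10 ways the share lower ran from 49.3% to 72.7% of all measured genes. For genes of at least 4096 it ran from 48.5% to 80.9%. Lysosomal membrane proteins and hydrolases had a median of -0.02 over 18 genes, with 7 higher and 11 lower. They ran from Npc1, a cholesterol exporter, at -0.25 to the calcium channel Mcoln1 at 0.18. Genes of lysosome positioning, which include BORC, a Ragulator-binding complex, and Arl8, had a median of -0.04 over 10 genes, from Arl8a at -0.16 to Borcs6 at 0.30.

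**Figure D4:**
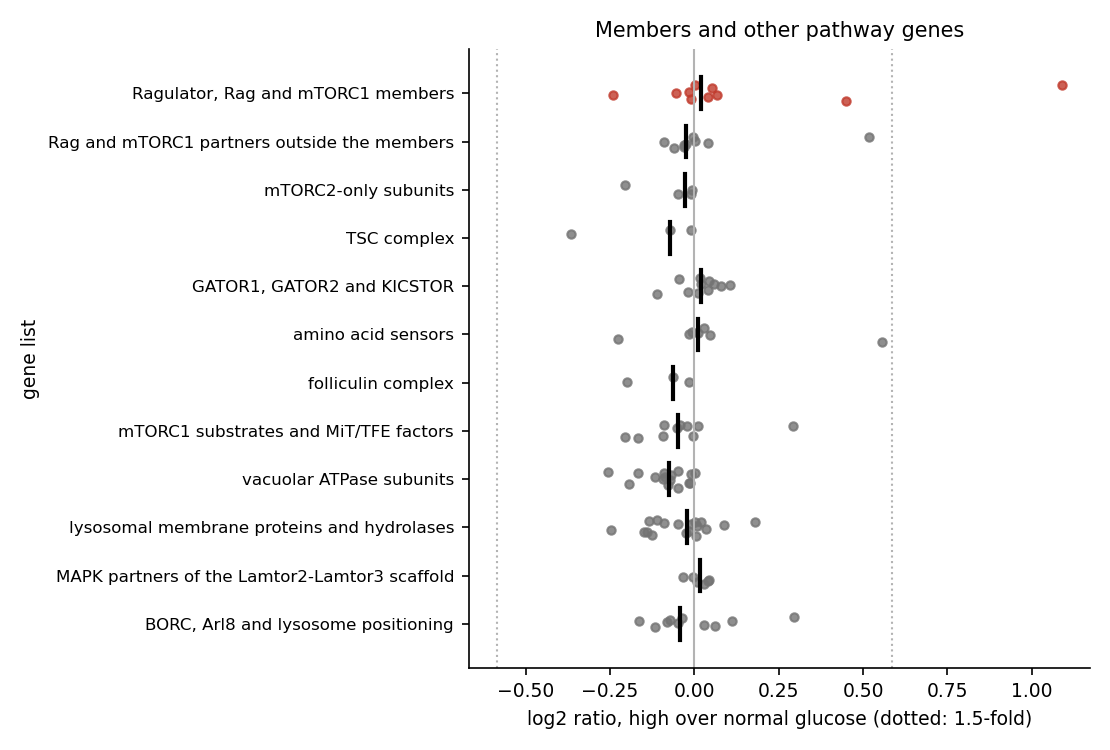
Log2 ratio of high over normal glucose for the 10 genes described (red, top) and 97 genes of 11 related lists (grey); each point is a gene, spread vertically for legibility, black bars are medians and dotted lines mark 1.5-fold. Lamtor2 at 1.09 is the one point past a dotted line, and 15 of 16 vacuolar ATPase points lie left of 0. All points of the mTORC2, TSC complex and folliculin complex lists lie left of 0 too. Of all measured genes, 53.2% were lower.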

How the data were processed

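The authors deposited linear intensity for each spot of 1-colour (Cy3) arrays whose design rests on mm9. The scanner software was Feature Extraction, version 11.5.1.1 per the file headers and 9.3.2.1 per the submitters' processing notes. The deposited processed signal is background-subtracted and detrended within each array but not scaled between arrays, per the file headers. Marks for spots well above background, saturated or uneven come from the same software. The deposited value table equals the mean of these signals over spots for 99.7% of 55681 probes, within a relative tolerance of 0.001. Its medians were 48.9 for high and 49.6 for normal glucose.

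From these, log2 spot values were averaged per probe and each array's 75th percentile was subtracted, after leaving out 3671 control spots. Accessions matched exactly 1 RefSeq symbol (GRCm38.p6) for 27509 probes, and 28172 had no such single match. A gene was read from its brightest probe and counted as measured when at least 0.5 of its spots were well above background, and none saturated, on both arrays. The number of arrays limits the precision, and no test was run with 1 array per condition. The members and lists were chosen with earlier results of these data known. Genes were named by rule: every member, the highest and lowest of each list, and the genes next to Lamtor2 in ratio at like signal. Chosen after their values were seen were Rheb, Rragb, Tsc1, Tfe3, Mitf, Tfeb, Hmox1, the chromosomal neighbours of Lamtor2 and the cell markers named, as were 2 of the motifs. Most genes of the lists enter as counts and medians, and some are not reported here. Alternatives covered scaling, background, spot summary, filters and the probe rule. Counting was tested on simulated data. Python 3.11.15, pandas 2.3.3, R 4.3.3 and limma 3.58.1 were used.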

Additional observations from a re-analysis of the deposited data

How the results depend on the processing

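The count of members at least 1.5-fold different was 1 under all 10 alternatives, 8 planned and 2 chosen after seeing the data. All of them reuse the same 2 arrays. The deposited value table, the lack of a dim filter and the median over probes left Lamtor2 at 1.09 by construction. Those settings could not have moved it. The log2 ratio of Lamtor2 ran from 1.03 to 1.096, lowest at 1.03 with each array centred on its median. That centring shifts every log2 ratio by -0.06 and brings the median of the members to -0.04 (-0.0397). Of 100 values of single members, 81 stayed within the SD of repeat spots and 19 did not. The 81 include values that repeat the main one by construction, such as those with no filter on dim probes. Lamtor2, Lamtor1, Rraga, Rragd and Mtor kept their sign throughout, and the other 5, all near level, changed it at least once. Rragd came to 0.16 with median pixels and 0.13 with a modelled background. All measured genes at least 1.5-fold different numbered 398, but 144 with the background modelled on median pixels with an offset of 50, which shrinks dim ratios, and 2254 with no filter on dim probes. The model on mean spot signals was not run, and the median signal was used instead. No paired analysis was possible because each condition has 1 array. Dim signals, such as those of Rragd, limit what can be seen.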
